A study of Rattus norvegicus with 18 samples.

Results

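H3K4me3 ChIP-seq of rat Schwann cells was examined at the peaks that held fewer reads 3.5 h after washout of cAMP than in control cells and than 30 min after washout. These 868 peaks are called 3.5hr-low peaks here. They were chosen from the read counts themselves, by 4 conditions. The peak lay on chromosomes 1 to 20, its mean count over the 9 ChIP libraries was 50 or more, the highest of its 3.5hr libraries was below the lowest of the 6 Control and 30min libraries, and its mean 3.5hr level was at most 0.8 times both the Control and the 30min mean. Levels are in CPM, which are reads per 1000000 reads in peaks of the same library. The 3.5hr-low peaks were 5.30% of the 16364 peaks counted and 5.60% of the 15492 peaks that met the first 2 conditions, called eligible peaks here. Since the levels at 3.5hr chose the peaks, their differences from Control and 30min are given as a description and no test is read from them.

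The cells were primary Schwann cells cultured from sciatic nerves of 3-month-old Fisher rats and, per the study's methods, grown for experiments without neuregulin or forskolin. Each of 3 conditions had 3 H3K4me3 ChIP libraries and 3 genomic input libraries. Cells labelled Control had no treatment named. Cells labelled 30min received cAMP for 30 min and were collected 30 min after it was washed out, and cells labelled 3.5hr received the same 30 min of cAMP and were collected 3.5 h after washout. The agent was the membrane-permeable analog 8-CPT-cAMP, at 50 μM by a figure legend of the study and one label field and at 100 μM by another label field. The labels name 1 Control group for both collection times. For 30min replicate 3, ChIP and input, the labels mention reads of a run 2. No source says that the replicates came from separate cultures, so the p-values measure the spread between these libraries, which may be technical.

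H3K4me3, the trimethylated form of lysine 4 of histone H3, marks the nucleosomes around the start sites of active and poised genes. It is written by the SET1 and MLL complexes and removed by the iron-dependent KDM5 demethylases. In Schwann cells, the glia that ensheathe peripheral axons, cAMP is the second messenger known for promoting differentiation and the myelinating program. Broad H3K4me3 domains are known to cover genes that are highly active or define a cell type, whereas narrow and weak peaks are found at less active promoters and at some enhancers.

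Between 13762905 and 17160987 reads per ChIP library fell in peaks. Reads that the counting program HTSeq assigned to no peak, for any reason, are called reads outside peaks here. They took 17% to 20.3% of a Control library, 20.9% to 24.9% of a 30min library and 11.5% to 20.9% of a 3.5hr library. The counts were scaled to reads in peaks, so a change of H3K4me3 shared by all peaks cannot be seen, and all levels below are relative to the other peaks. The files give peaks by name and by position on the rat build Rnor_6.0, with no gene names. No annotation or sequence of that build was used here, so the genes, promoters and base composition at these peaks, and Schwann cell markers, were not analysed here.

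Summed over the 868 peaks, the share of reads was highest at 30min and lowest at 3.5hr. The 3.5hr-low peaks took 2.16%, 2.13% and 2.13% of the reads in peaks in Control replicates 1, 2 and 3. They took 2.5%, 2.30% and 2.26% in the 30min replicates and 1.74%, 1.46% and 1.26% in the 3.5hr replicates. The means were 2.14% ± 0.0187, 2.35% ± 0.126 and 1.49% ± 0.245 (SD, n = 3 each). The Control libraries were nearly equal, the 30min libraries all lay above them, and the 3.5hr libraries lay below both and far apart from each other. As a share of all reads, with reads outside peaks included, the peaks took 1.80%, 1.70% and 1.75% in Control, 1.88%, 1.82% and 1.70% at 30min and 1.38%, 1.27% and 1.11% at 3.5hr. On that scale Control and 30min libraries overlapped, and the 3.5hr libraries again lay below both.

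**Figure D1:**
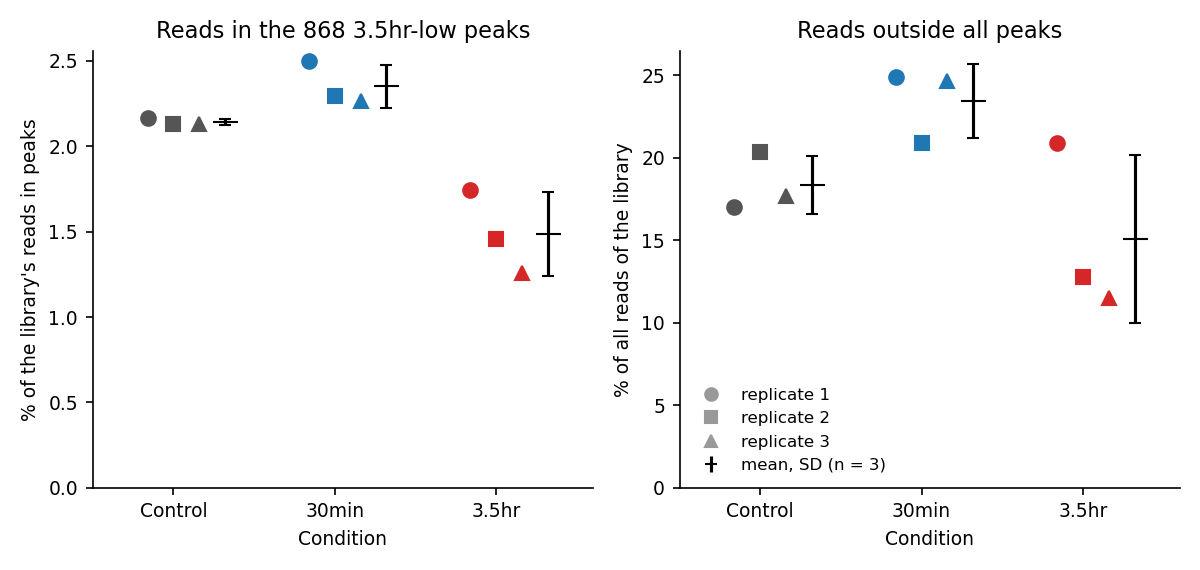
For each ChIP library, the left panel plots the percent of its reads in peaks that fell in the 868 3.5hr-low peaks. The right panel plots the percent of all its reads that were assigned to no peak. Points are libraries, with a marker for each replicate number, and bars are the mean and SD of 3 libraries. At 3.5hr, replicate 1 was highest and replicate 3 lowest in both panels (1.74% and 1.26% on the left, 20.9% and 11.5% on the right).

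The depth of the fall differed between the 3.5hr libraries in one order at most of the peaks. The median level relative to the Control mean was 0.801 in 3.5hr replicate 1, 0.663 in replicate 2 and 0.523 in replicate 3. Replicate 1 was the highest of the 3.5hr libraries at 780 of the peaks and replicate 3 the lowest at 792. Replicate 1 above replicate 2 above replicate 3 was found at 729 peaks, or 84.0%, against 25.5% of the 14624 other eligible peaks. The share of reads outside peaks stood in the same order in these libraries, at 20.9%, 12.8% and 11.5%, and its part in the result was not tested.

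Control libraries, by contrast, were closer to each other at these peaks than read counting alone would make them. A chi-square of their counts, divided by its degrees of freedom and so expected at 1 for counting noise alone, was 0.817, 0.862 and 0.873 for the pairs of Control libraries over the 868 peaks. It was 2.58, 3.93 and 1.23 for the 30min pairs (replicates 1 and 2, 1 and 3, 2 and 3) and 6.28, 18.4 and 4.83 for the same pairs at 3.5hr. The rule, which asks for separated libraries, bears on these values. Over all peaks the Control pairs also lay under 1, at 0.664, 0.917 and 0.905. Replicates 1 and 2 of Control were counted as 2 libraries, because the share of reads outside peaks differed between them (17% and 20.3%). That difference shows only that they were not identical copies, and whether they shared cells or chromatin was not tested.

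**Figure D2:**
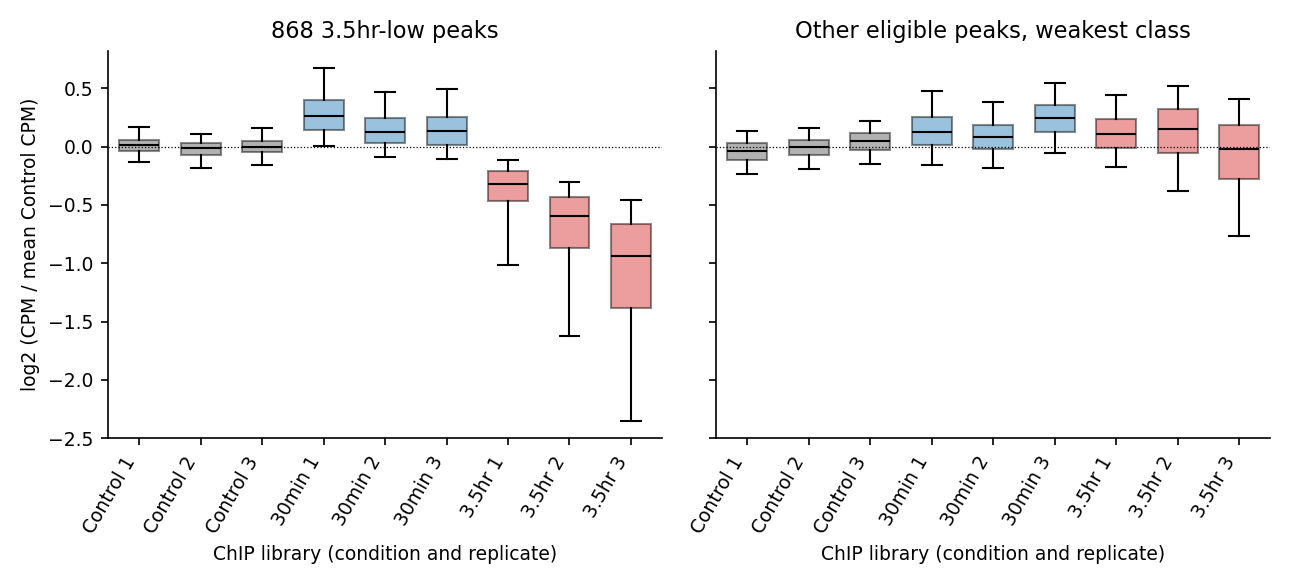
Each box plots the log2 ratio of CPM in 1 ChIP library to the mean Control CPM of the same peak, for the 868 3.5hr-low peaks (left) and for the 3295 other eligible peaks in the weakest of 4 equal classes by Control CPM per kb (right). Boxes span the quartiles, lines in them are medians and whiskers reach the 5th and 95th percentiles. On the left the 3.5hr medians lie below Control and apart from each other (0.801, 0.663 and 0.523 as ratios), while on the right they lie near the Control level (1.08, 1.11 and 0.986).

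Peaks of a similar level outside the set lay near their Control level at 3.5hr. The eligible peaks were split by Control CPM per kb into 4 classes of equal size. Among the 3295 other peaks in the weakest class, the median ratio to the Control mean was 1.08, 1.11 and 0.986 in the 3.5hr replicates and 1.09, 1.06 and 1.18 in the 30min replicates. Those peaks are defined by their Control level and by not meeting the rule, so the contrast with the 3.5hr-low peaks is a description.

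The 3.5hr-low peaks were narrow and weak beforehand. Their median width was 1150 bp (quartiles 812.75 and 1710.25), against 1597 bp (1110 and 2204) in the other eligible peaks. Their median Control level was 10.9 CPM per kb (quartiles 7.16 and 19.3), against 33.9 CPM per kb (17.9 and 45.8). The median of the peaks' levels in each library averaged 10.9 ± 0.155 CPM per kb in Control, 12.9 ± 1.0 at 30min and 6.79 ± 1.67 at 3.5hr (SD, n = 3 each). The other eligible peaks stood at 33.9 ± 0.0669, 34.2 ± 0.125 and 34.0 ± 0.195 CPM per kb. With a median of 169 reads per library per peak, against 848, each weak peak carries more counting error. The rule limits the fall to 0.8 or less, which a weak peak can reach more easily by counting error than a strong one, and that part was not tested. Peaks that rose were of the same kind: the 101 eligible peaks of the mirror rule (ratio of at least 1.25 and higher in every 3.5hr library) had a median width of 1077 bp and a median Control level of 9.98 CPM per kb, and 72 of them lay in the weakest of 4 equal classes of Control level. Narrowness and weakness were thus not particular to the 3.5hr-low peaks.

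Level per kb, more than width, separated the classes that held many 3.5hr-low peaks from those that held few. Of the 3873 eligible peaks in the weakest class (under 16.1 CPM per kb), 578 were 3.5hr-low peaks, or 14.9%. The share was 6.4% in the second class (248 peaks), 0.981% in the third (38 peaks) and 0.103% in the strongest (4 peaks, above 45 CPM per kb). Within the weakest class, peaks under 700 bp, from 700 to under 1500 bp and from 1500 to under 2500 bp held nearly equal shares, 14.8%, 14.5% and 15.5%. Wide peaks of low level stood higher, with 24 of 159 peaks of 4000 bp or wider in the second class (15.1%) and 6 of 18 in the weakest (33.3%).

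**Figure D3:**
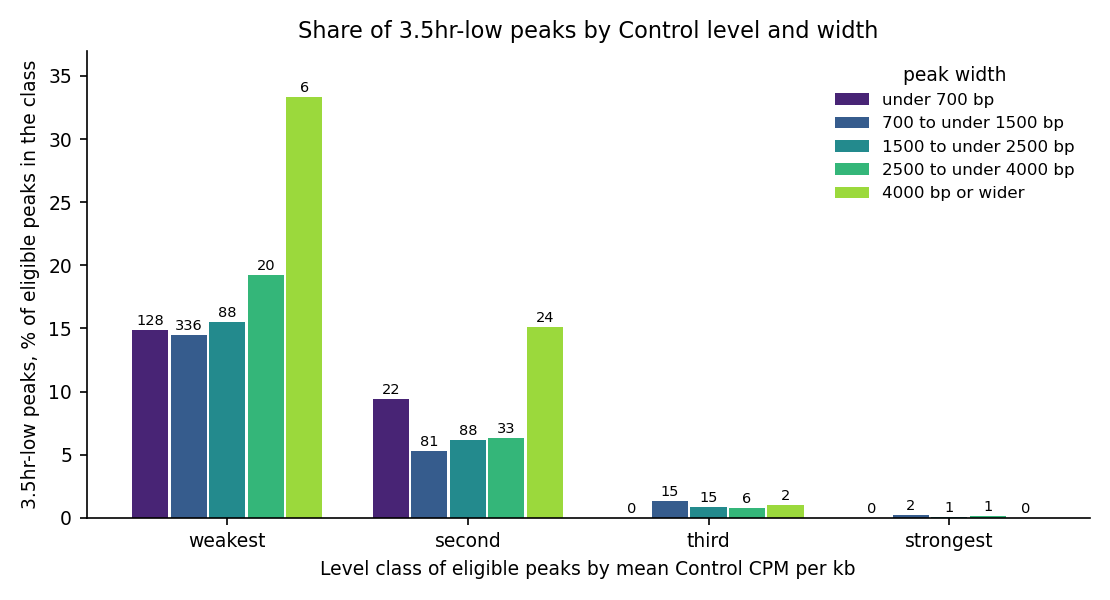
Bars give the percent of eligible peaks that were 3.5hr-low peaks in each of the 4 classes of Control CPM per kb and each width class, and the number over a bar is the count of 3.5hr-low peaks in it. The shares drop from 14.9% over the weakest class to 0.103% over the strongest, and the widest peaks give the tallest bar in the weakest and the second class (33.3% of 18 peaks and 15.1% of 159).

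The size of the fall ranged widely. The ratio of the 3.5hr mean to the lower of the Control and 30min means had a median of 0.668 (quartiles 0.560 and 0.741) and ran from 0.133 to 0.799. It was 0.5 or less at 144 peaks (16.6%) and 0.25 or less at 12, while 348 peaks lay between 0.7 and the limit of 0.8. The largest falls stood at weak peaks, with a median ratio of 0.631 in the weakest class of Control level, 0.722 in the second, 0.744 in the third and 0.748 in the strongest. By edgeR's fit over all 9 ChIP libraries, the median log2 change of the 868 peaks was -0.59 against Control (range -2.93 to -0.33) and -0.78 against 30min (range -3.30 to -0.34). The adjusted p was under 0.05 in the first of these contrasts at 795 of the peaks, where 17.8% of all peaks were called lower, and in the second at 862, where 23.3% were. Both counts follow from the rule. Of all 16364 peaks, 17.5% had every 3.5hr library below every Control and 30min library, and under the mirror rule 101 eligible peaks were higher at 3.5hr.

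**Figure D4:**
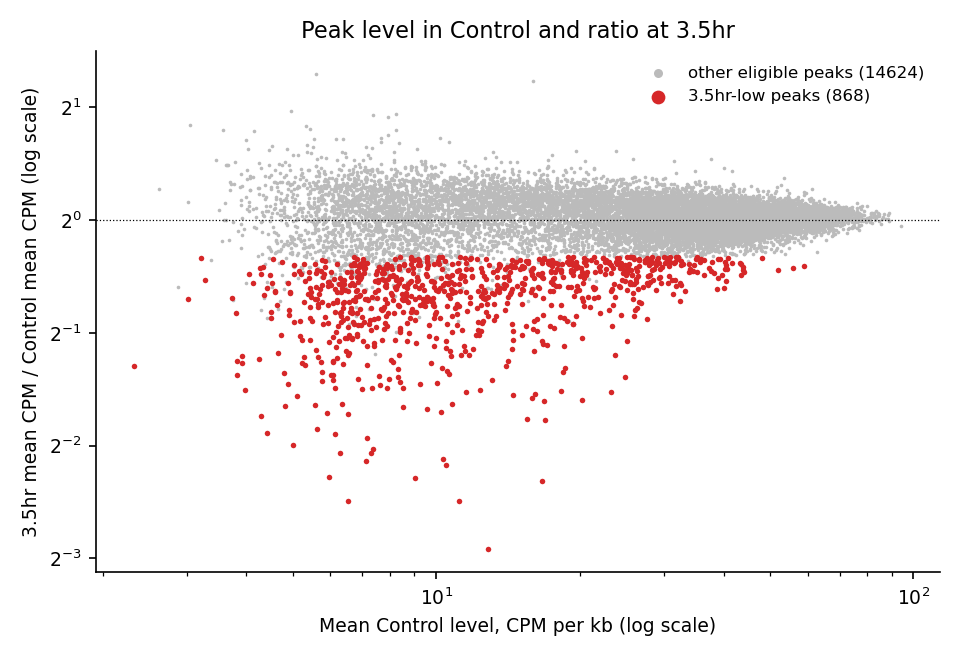
Each point is an eligible peak, with its mean Control level in CPM per kb on the x axis (log scale) and the ratio of its 3.5hr mean CPM to its Control mean CPM on the y axis (log scale). The 868 3.5hr-low peaks are red and the 14624 others grey. Red points crowd the left, where levels are low (median 10.9 CPM per kb), and the lowest is Peak_9142.

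The 10 peaks with the lowest ratios were all narrower than the median of the set, with few reads left at 3.5hr. Peak_9142 (chr14:24094452-24094870, 419 bp) held 5.38, 4.36 and 6.35 CPM in Control, 7.81, 6.91 and 6.07 CPM at 30min and 0.323, 0.970 and 0.843 CPM at 3.5hr. These 3.5hr levels are 5, 14 and 12 reads, the lowest in replicate 1, and the Control and 30min libraries overlapped. Its ratio to the lower mean was 0.133. Peak_10971 (chr1:137209208-137209889, 682 bp) went from 5.01, 4.29 and 4.07 CPM in Control and 6.70, 6.19 and 5.57 CPM at 30min to 0.645, 0.970 and 0.773 CPM at 3.5hr. Here the 30min libraries all lay above the Control libraries, and the 3.5hr libraries were close together, with replicate 1 again the lowest. Peak_12006 (chr4:61676917-61677288, 372 bp) had 4.36, 3.74 and 4.35 CPM in Control, 6.24, 4.23 and 4.51 CPM at 30min and 1.10, 0.762 and 0.351 CPM at 3.5hr. Its Control and 30min libraries overlapped.

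Peak_13991 (chr8:52515973-52517042, 1070 bp) was the widest of these 10. It held 9.59, 9.14 and 10.3 CPM in Control, 13.8, 11.5 and 9.95 CPM at 30min and 2.32, 1.73 and 1.90 CPM at 3.5hr, a ratio of 0.205. Its 3.5hr libraries stood together, well under the Control libraries. Peak_10666 (chr2:53198751-53199291) held 9.01, 8.93 and 9.04 CPM in Control, 11.3, 10.6 and 8.51 CPM at 30min and 2.77, 1.25 and 1.40 CPM at 3.5hr. In this peak the 30min libraries fell on both sides of the tight Control libraries. The ratios of the other 5, Peak_9189, Peak_9941, Peak_9944, Peak_3207 and Peak_12349, were 0.206, 0.222, 0.228, 0.230 and 0.239.

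**Figure D5:**
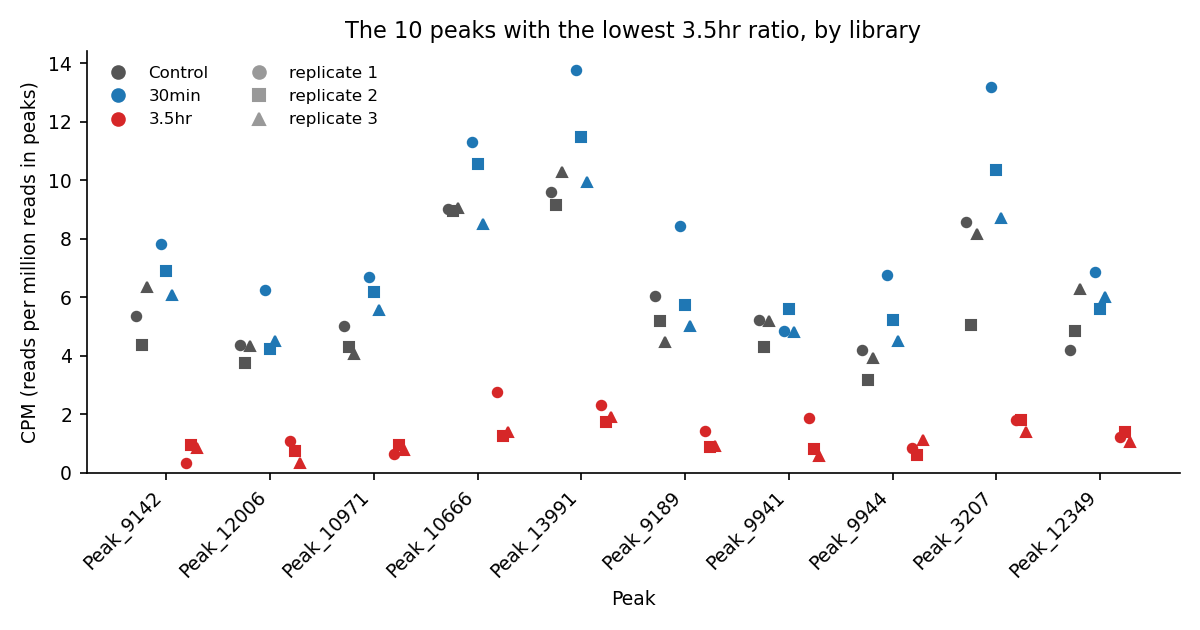
CPM is plotted for each ChIP library at the 10 peaks with the lowest 3.5hr ratio, with colors for conditions and markers for replicate numbers. Every 3.5hr point lies below every Control and 30min point of its peak, which the rule required, and at Peak_9142 the 3.5hr points lie between 0.323 and 0.970 CPM.

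The strongest and widest of the 868 peaks had ratios nearer to the limit. Peak_13931 (chr1:221197119-221209425) was the widest at 12307 bp and held the most reads. It had 362, 357 and 357 CPM in Control, 387, 363 and 355 CPM at 30min and 310, 278 and 265 CPM at 3.5hr. The Control and 30min libraries overlapped, and the ratio of 0.794 was close to the limit. Peak_14875 (chr1:264058055-264067734, 9680 bp) held 324, 308 and 310 CPM in Control, 323, 302 and 307 CPM at 30min and 243, 210 and 186 CPM at 3.5hr. Its ratio of 0.686 was the lowest of the 5 peaks with the highest mean CPM. Peak_1863 (chr6:24160372-24167581, 7210 bp), Peak_6985 (chr7:126554844-126559932, 5089 bp) and Peak_9745 (chr1:89491455-89496954, 5500 bp) had ratios of 0.735, 0.719 and 0.788, and Peak_10000 (chr17:67899554-67905993, 6440 bp), among the 4 widest, had 0.712. In all 6 the 3.5hr libraries ranked in that same way, with replicate 1 highest and replicate 3 lowest.

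The narrowest were Peak_9849 (chr17:12611317-12611643, 327 bp) and Peak_5803 (chr4:113968518-113968860, 343 bp), with ratios of 0.543 and 0.773. Just inside the limit, Peak_12234 (chr4:147716039-147719315) held 86.5, 83.9 and 83.3 CPM in Control, 90.2, 88.3 and 86.2 CPM at 30min and 75.5, 64.7 and 62.6 CPM at 3.5hr. Just outside it, Peak_12342 (chr4:179337951-179340422) held 97.4, 93.6 and 90.8 CPM in Control, 99.2, 100.1 and 96.9 CPM at 30min and 83.2, 74.1 and 68.3 CPM at 3.5hr. Both peaks showed the same separation of the 3.5hr libraries, so the limit cuts through a continuous range. A ratio between 0.8 and 0.9 was found at 783 of the separated eligible peaks.

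The rule treats Control and 30min alike and does not use the difference between them, but it uses the levels of both. A peak where either level lay close to the 3.5hr level was left out, so the 30min values below are not independent of the rule. At 30min most of the 868 peaks were a little above Control. Their median log2 change was 0.18, against 0.02 over all peaks, and it was above 0 at 801 peaks (92.3%), against 57.0% of all. The 30min libraries all lay above the Control libraries at 420 of the 868 peaks (48.4%), where 19.5% of all peaks did so, and all below them at 2 peaks (0.230%), where 17% did. Weak peaks outside the set also tended to lie above Control at 30min. In the other eligible peaks of the weakest class the median log2 change was 0.15. All 30min libraries lay above Control at 30.0% of these peaks and all below at 0.880%, so falls at 30min were rare there too. In the 3.5hr-low peaks of the same class the median was 0.24. At 30min reads outside peaks were also most frequent (23.5% ± 2.24, against 18.3% ± 1.76 in Control, SD, n = 3 each), and their part in this difference was not tested. With all reads as library size the median of the 868 peaks was 0.08 and that of all peaks -0.07, and with loess offsets, which take out a trend of the ratios with peak strength, these medians were 0.08 and 0.00.

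Few of these differences passed the test peak by peak. edgeR's quasi-likelihood test called 6 of the 868 peaks higher at 30min at an adjusted p under 0.05, or 0.691%, where 0.532% of all peaks were called higher. It called 0 lower, where 0.281% of all peaks were called lower, and DESeq2 called 11 higher (1.27%, against 0.471% of all) and 0 lower (against 0.251% of all). At an unadjusted p under 0.05, edgeR had 184 higher (21.2%), against 11.5% of all peaks and 20.7% of the other peaks in the weakest class. It had 0 lower, against 9.92% of all peaks and 0.334% of the other peaks in the weakest class. The count of 6 depended on single libraries. It was 0 without 30min replicate 2, Control replicate 1 or Control replicate 2, 1 without 30min replicate 1 or Control replicate 3, 2 without 3.5hr replicate 2, 5 without 30min replicate 3, 85 without 3.5hr replicate 3 and 115 without 3.5hr replicate 1. Over all peaks, the main fit called 133 at 30min in either direction. That number was 1287 without 3.5hr replicate 3, 1254 without 3.5hr replicate 1 and 13 to 55 without one of the other libraries. The 3.5hr libraries enter this contrast through the shared estimate of the spread. With only Control and 30min in the fit, 202 of the 868 peaks were called higher (23.3%), where 5.97% of all peaks and 9.29% of the other peaks in the weakest class were.

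Peak_5727 (chr4:62104926-62105808, 883 bp) had the largest rise at 30min. It held 3.85, 4.09 and 3.94 CPM in Control, 8.39, 7.75 and 7.76 CPM at 30min and 3.68, 3.26 and 1.55 CPM at 3.5hr. The 30min libraries lay far above Control, a log2 change of 1.01 ± 0.20 (SE, adjusted p = 0.038 by edgeR), and 3.5hr replicates 1 and 2 were only slightly below the Control libraries. Peak_9682 (chr16:26791063-26792582, 1520 bp) held 3.78, 3.60 and 3.24 CPM in Control, 8.27, 6.84 and 5.69 CPM at 30min and 2.39, 0.762 and 1.19 CPM at 3.5hr. All its 30min libraries lay above Control, and the log2 change of 0.97 ± 0.24 (SE) missed the threshold (adjusted p = 0.0701 by edgeR). Peak_15192 (chr10:55655158-55655956, 799 bp) held 4.72, 3.60 and 3.66 CPM in Control, 8.97, 7.17 and 5.82 CPM at 30min and 0.774, 1.46 and 0.773 CPM at 3.5hr. Its groups did not overlap either, and its log2 change of 0.88 ± 0.20 (SE) also missed the threshold (adjusted p = 0.0625 by edgeR).

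The other 5 peaks called higher at 30min, named after their values were seen, were Peak_11220, Peak_1165, Peak_13217, Peak_15673 and Peak_5344. The clearest by count, Peak_15673 (chr11:58623740-58627795, 4056 bp), held 66.8, 67.7 and 67.9 CPM in Control, 92.2, 84.0 and 81.3 CPM at 30min and 56.2, 52.4 and 47.2 CPM at 3.5hr. It was tight in Control, above it in every 30min library (log2 change 0.35 ± 0.05 SE, adjusted p = 0.0141 by edgeR) and below it in every 3.5hr library. Peak_1165 (chr3:66602376-66604477, 2102 bp) held 16.1, 14.6 and 13.6 CPM in Control, 23.7, 20.4 and 22.5 CPM at 30min and 8.39, 6.79 and 5.83 CPM at 3.5hr. The 2 peaks with every 30min library below Control were Peak_1210 (chr3:105108517-105109063) and Peak_4025 (chr1:13568826-13570217), with log2 changes of -0.27 ± 0.15 and -0.08 ± 0.16 (SE, adjusted p = 0.315 and 0.798 by edgeR). The rule on named peaks did not include Peak_4025. The next largest log2 decreases at 30min, Peak_12950 and Peak_3140, both stood at -0.15 and overlapped Control.

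Genomic input, which is sheared chromatin without antibody, was thin at these peaks and showed no called difference. Input reads in the 868 peaks per 1000000 reads were 486, 476 and 1055 in Control replicates 1, 2 and 3, 589, 570 and 1158 at 30min and 601, 775 and 489 at 3.5hr. The means were 672 ± 332, 772 ± 334 and 622 ± 144 (SD, n = 3 each), and the 3.5hr libraries lay inside the range of the others. Replicate 3 of Control and of 30min were the high libraries, and they were also sequenced deepest, at 22886541 and 23568332 reads. Both were high over all peaks too, with 2.95% and 3.55% of their reads in peaks, against 1.05% to 2.31% in the other input libraries. Only 106 of the 868 peaks had enough input reads for a test. edgeR and DESeq2 called 0 of them at 3.5hr against Control, and edgeR called 0 of the 3320 peaks tested (0%). At an unadjusted p under 0.05 the counts were 0 of the 106 and 39 of the 3320 (1.17%). The median log2 change of the 106 was -0.02, with a range of -1.31 to 1.09, so at this depth a change in input as large as that in ChIP could not be seen peak by peak.

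Most of the 3.5hr-low peaks still stood above input at 3.5hr. Set against the 9 input libraries pooled, which the 2 deep libraries dominate, the median enrichment was 14.3-fold in Control, 16.2-fold at 30min and 8.99-fold at 3.5hr. The other eligible peaks had 34.2-fold, 32.3-fold and 35.5-fold. Under 4-fold were 5 of the 868 peaks in Control, 1 at 30min and 123 at 3.5hr (14.2%), and 745 stayed at or above 4-fold in every condition. For 118 peaks the level was under 4-fold at 3.5hr alone. Of the named peaks, Peak_12595 and Peak_412 had the most input reads per kb. Peak_412 (chr17:59731620-59732007, 388 bp) held 6.83, 6.37 and 6.35 CPM in Control, 8.16, 7.30 and 7.26 CPM at 30min and 4.0, 1.80 and 0.632 CPM at 3.5hr. Its 3.5hr replicates were the most spread of those named in this paragraph, with replicate 3 far below replicate 1.

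Many 3.5hr-low peaks lay next to another peak. A second peak stood within 1000 bp of 194 of them (22.4%), against 10.9% of the other eligible peaks. Within the weakest class these shares were 24.4% and 13.8%. Most peaks beside them, which the rule did not choose, were not called lower. Of 301 peaks within 5 kb of a 3.5hr-low peak that were not themselves in the set, edgeR called 68 lower at 3.5hr than Control (22.6%), where 17.8% of all peaks were called lower, and 26 higher (8.64%), where 13.7% were. The shares over all peaks include the 3.5hr-low peaks themselves, and among the eligible peaks outside the set 13.4% were called lower and 14.7% higher. The 301 neighbours had a median log2 change of -0.03, against -0.59 in the 3.5hr-low peaks. The share called lower was 25% of 216 peaks within 2 kb and 19.0% of 651 within 20 kb. The count of 68 became 40 without 3.5hr replicate 2, 43 without Control replicate 1 or Control replicate 2, and 38 with all reads as library size. Counts over all peaks fell in the same settings. From 2919 called lower, they became 1696 without 3.5hr replicate 2, 1802 without Control replicate 1, 2015 without Control replicate 2 and 1322 with all reads as library size.

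Peak_12349 (chr4:181288089-181288902, 814 bp) held 4.21, 4.85 and 6.28 CPM in Control, 6.88, 5.60 and 6.01 CPM at 30min and 1.23, 1.39 and 1.05 CPM at 3.5hr. The strong Peak_1576, 220 bp away, held 129, 133 and 133 CPM in Control and 130, 135 and 132 CPM at 3.5hr. That neighbour overlapped its Control level (log2 change -0.01 ± 0.02 SE, adjusted p = 0.886 by edgeR). Peak_9189 (chr14:45170988-45171865, 878 bp) held 6.03, 5.19 and 4.49 CPM in Control, 8.45, 5.73 and 5.01 CPM at 30min and 1.42, 0.901 and 0.913 CPM at 3.5hr. Peak_9190, 199 bp from it, held 53.8, 53.1 and 52.0 CPM in Control and 50.5, 54.5 and 56.2 CPM at 3.5hr, so its groups overlapped (log2 change 0.01 ± 0.04 SE, adjusted p = 0.910 by edgeR).

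Some neighbours were higher at 3.5hr than in Control, though not all of them were higher than at 30min. Peak_3207 (chr10:103826803-103827506, 704 bp) held 8.57, 5.06 and 8.15 CPM in Control, 13.2, 10.4 and 8.70 CPM at 30min and 1.81, 1.80 and 1.40 CPM at 3.5hr. Peak_15522, 177 bp from it, held 26.6, 26.5 and 27.2 CPM in Control, 26.5, 26.4 and 27.9 CPM at 30min and 30.0, 31.5 and 31.3 CPM at 3.5hr, where every library was above those of both other conditions. By edgeR its log2 change at 3.5hr was 0.20 ± 0.05 SE against Control (adjusted p = 0.0110) and 0.19 ± 0.05 SE against 30min (adjusted p = 0.00854). Next to Peak_5727, at 161 bp, Peak_5726 held 18.0, 18.4 and 16.7 CPM in Control, 21.7, 22.3 and 23.0 CPM at 30min and 26.1, 24.6 and 22.5 CPM at 3.5hr. It was above Control at 3.5hr (log2 change 0.45 ± 0.07 SE, adjusted p = 0.00102 by edgeR), but the 3.5hr and 30min libraries overlapped (0.12 ± 0.07 SE, adjusted p = 0.176 by edgeR). Peak_9944 (chr17:43932027-43932557, 531 bp) held 4.21, 3.19 and 3.94 CPM in Control, 6.76, 5.21 and 4.51 CPM at 30min and 0.839, 0.624 and 1.12 CPM at 3.5hr. Its neighbour Peak_9943, 172 bp away, held 1.24, 2.01 and 1.93 CPM in Control, 3.20, 2.80 and 3.94 CPM at 30min and 2.71, 3.05 and 3.09 CPM at 3.5hr. It too was above Control at 3.5hr (log2 change 0.75 ± 0.22 SE, adjusted p = 0.0228 by edgeR) and not above 30min (-0.18 ± 0.19 SE, adjusted p = 0.491 by edgeR). Other neighbours outside the set had lower means at 3.5hr than in Control. Peak_9942 and Peak_3142 had log2 changes of -0.37 ± 0.17 and -0.50 ± 0.22 (SE, adjusted p = 0.106 and 0.0990 by edgeR). Against 30min the log2 changes of these peaks were -0.79 ± 0.16 and -0.16 ± 0.23 (SE, adjusted p = 0.00211 and 0.592 by edgeR). In both, 3.5hr replicate 1 lay within the Control range.

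The closest pair of 3.5hr-low peaks lay 110 bp apart on chromosome 13. Peak_3520 (chr13:74216585-74217459) held 22.3, 21.8 and 19.95 CPM in Control, 21.7, 20.7 and 18.5 CPM at 30min and 15.9, 11.6 and 8.22 CPM at 3.5hr. Peak_16232 (chr13:74217570-74218701) held 6.47, 5.12 and 4.97 CPM in Control, 9.38, 6.71 and 7.32 CPM at 30min and 2.13, 1.73 and 2.18 CPM at 3.5hr. The stronger of them overlapped Control at 30min, and the weaker was above Control in every 30min library (log2 change 0.50 ± 0.16 SE, adjusted p = 0.119 by edgeR). Peak_16233, 233 bp from Peak_16232, was under the count minimum and so outside the set. It held 2.33, 2.49 and 1.59 CPM in Control, 3.61, 3.26 and 1.81 CPM at 30min and 1.23, 1.39 and 0.351 CPM at 3.5hr. Its log2 change at 3.5hr against Control was -1.10 ± 0.41 (SE, adjusted p = 0.0540 by edgeR).

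Among the autosomes, chromosome 17 had the highest share of 3.5hr-low peaks. Of its 554 eligible peaks, 61 were 3.5hr-low peaks (11.0%), against 807 of 14938 (5.40%) on the other autosomes. The share on the other autosomes ran from 4.0% on chromosome 3 to 7.53% on chromosome 13. Within the weakest class it was 45 of 156 (28.8%) on chromosome 17 and 533 of 3717 (14.3%) elsewhere. Most 3.5hr-low peaks stood alone, with 725 having no other within 50 kb, and 14 runs held 3 or more with gaps of at most 50 kb. Peaks of a run share their libraries and may share a domain, so they are not independent of each other.

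The longest run, of 6 peaks, spanned chr17:45587318-45645675 and included 4 peaks that were not in the set. Summed over its 6 peaks the level was 59.0, 58.1 and 54.7 CPM in Control, 76.5, 71.5 and 72.8 CPM at 30min and 39.1, 29.2 and 21.1 CPM at 3.5hr. The 30min sums all lay above Control and the 3.5hr sums all below. A run of 4 at chr17:43919300-43963625, which holds Peak_9941 and Peak_9944, summed to 55.8, 54.0 and 52.9 CPM in Control, 69.2, 64.3 and 60.9 CPM at 30min and 40.7, 32.6 and 24.6 CPM at 3.5hr. Another run of 4 at chr17:767301-846168 held no other peak and summed to 234, 232 and 219 CPM in Control, 264, 239 and 241 CPM at 30min and 191, 165 and 148 CPM at 3.5hr. These runs showed the same order of the conditions and of the 3.5hr replicates as the 868 peaks together. In the 1 Mb window at chr17:45000001-46000000, 8 of 20 eligible peaks (40%) were 3.5hr-low peaks, the highest count of any such window. Its share was not the highest, since the window at chr17:1-1000000 had 5 of 9 (55.6%).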

How the data were processed

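Primary rat Schwann cells were profiled by H3K4me3 ChIP-seq and genomic input sequencing. Per the study's methods, the authors trimmed 75-bp single reads with Trim Galore, aligned them to Rnor_6.0 with BWA, took out reads that were duplicates or mapped to several places, and merged over the treatments the MACS2 peaks that passed an Irreproducible Discovery Rate filter. What the authors deposited are HTSeq counts for each merged peak, raw and without normalization. Since duplicates were removed, the width of a peak limits how many reads it can hold. The 294642 values of the single-library files and of the combined table were compared, and 0 differed. HTSeq's own classes, which held 11.5% to 24.9% of the reads of a ChIP library, entered no test and, except in one alternative, no library size.

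Differential peaks were tested over all 16364 peaks with edgeR 4.0.16 (R 4.3.3) by the quasi-likelihood fit of the 9 ChIP libraries with TMM, edgeR's filter on low counts and Benjamini-Hochberg adjustment at 0.05. Input libraries were fitted likewise. The fit was tested on simulated counts with the same small spread in every condition. It recovered 186 of 200 peaks changed by 0.5 log2 at 3.5hr, with 7 false calls. A wider spread at 3.5hr, as in these libraries, was not simulated. Depth was 13762905 to 17160987 reads in peaks per ChIP library, and counting intervals are not given because edgeR's spread includes counting error. What edgeR calls the biological coefficient of variation, given for a whole fit and not by condition, was 1.96% for ChIP and 26.8% for input. It may be technical here. Between the ChIP libraries of a condition, the median coefficient at 3.5hr-low peaks was 5.10% in Control, 7.62% at 30min and 21.8% at 3.5hr. At the other eligible peaks it was 2.27%, 2.78% and 3.91%. These medians were taken from CPM and include counting error. Alternatives were DESeq2 1.42.0, library sizes without TMM or from all reads, other filters, loess offsets (span 0.3), only the compared conditions, a replicate block, unadjusted p-values, other limits of the rule and leaving out each library. Replicate numbers came from the labels.

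The 868 peaks, the lists and the tests were chosen with earlier results of these data known. The named peaks were the 10 with the lowest ratio to the lower mean, the 5 with the highest mean CPM, the 4 widest and 2 narrowest, the 3 with the largest rise and fall at 30min, the 3 nearest each side of the ratio limit, the 3 closest pairs, the 2 with the most input reads per kb, and neighbours within 5 kb. Peaks near listed genes and marker genes were part of that rule, but no annotation of Rnor_6.0 was used here, so they were not analysed. RefSeq tables of another rat build were not used here. Calculations used Python 3.11.15 with numpy 2.4.6 and pandas 2.3.3, and matplotlib 3.10.9 for plots.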

Additional observations from a re-analysis of the deposited data

How the results depend on the processing

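The number of 3.5hr-low peaks depended most on the limits of its rule and on the 3.5hr libraries. It was 520 with a ratio limit of 0.7 and 1651 with 0.9, and from 678 (without 3.5hr replicate 3) to 1404 (without 3.5hr replicate 1) with one library left out. With all reads as library size it was 720, of which 699 were among the 868, and 380 peaks then met the mirror rule, against 101. The 6 peaks called at 30min became 11 with DESeq2, 12 with all reads as library size, 3 with loess offsets, 202 with only the compared conditions and 184 at an unadjusted p, and 0 to 115 with one library left out. Over all peaks, 133 were called at 30min in either direction. That number was 118 with DESeq2, 68 with all reads as library size, 110 with loess offsets and 2044 with only the compared conditions. It was 13 to 1287 with one library left out. The median log2 change of the 868 peaks at 30min, 0.18, was 0.0848 with all reads as library size and 0.0795 with loess offsets. The 68 neighbours called lower became 38 with all reads as library size, 124 within 20 kb and 40 to 100 with one library left out. Over all peaks, the 2919 called lower at 3.5hr than Control became 1322 with all reads as library size. With one library left out they were 1696 to 3818. The causes were not tested. Of the 868 peaks, the number called lower at 3.5hr ranged from 591 to 853 against Control and from 819 to 864 against 30min with one library left out.

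The counts did not settle whether libraries of the same replicate number were paired, and the main fit did not pair them. The deviations of same-numbered ChIP libraries from their group means correlated at -0.21 to 0.40, with 4 of 9 pairs over 0.1, and those of input libraries at -0.14 to 0.38, with 1 of 9. With the replicate number as a block, 27 of the 868 peaks were called at 30min and 79 neighbours lower at 3.5hr. Over all peaks the block gave 244 called at 30min, against 133 without it. It gave 3153 lower at 3.5hr than Control, against 2919 without it. For the input test, 0 peaks were called with the block as without it. Depth limits the weakest peaks, whose 3.5hr levels rest on few reads, and input, where 106 of the 868 peaks could be tested.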

Other observations

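The X chromosome, which the rule leaves out, held peaks of the same kind. Of its 465 peaks with a mean count of 50 or more, 28 met the other conditions (6.02%), and 1 met the mirror rule. Their median width was 1271.5 bp and their median Control level 12.1 CPM per kb. The median level relative to the Control mean was 0.824, 0.634 and 0.526 in 3.5hr replicates 1, 2 and 3, the order found on the autosomes. All 30min libraries lay above Control at 11 of the 28 (39.3%), and the median log2 change at 30min was 0.21. Peak_14725 (chrX:78042537-78043142) held 8.36, 8.59 and 7.32 CPM in Control, 9.44, 9.71 and 10.1 CPM at 30min and 4.26, 2.43 and 0.702 CPM at 3.5hr. Peak_14745 (chrX:107495988-107496737) held 3.85, 3.67 and 4.69 CPM in Control, 5.19, 4.82 and 3.94 CPM at 30min and 1.29, 1.25 and 1.19 CPM at 3.5hr. In the first the 3.5hr libraries were far apart, and in the second they were nearly equal. These peaks were chosen by the same levels at 3.5hr, so the falls are a description.

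Under the count minimum, 116 of 360 autosomal peaks met the other conditions of the rule and 6 met the mirror rule.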
